A study of Drosophila melanogaster with 2 samples.

Results

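In embryos of Drosophila melanogaster, the DNA-bound protein CG32772, fused to the fluorescent protein eGFP, occupied 880 autosomal sites that lie inside introns of genes shorter than 50 kb. The sites were chosen by position alone from the 4699 peaks called jointly on the sex chromosomes and autosomes, of which 3702 were on the 4 large autosome arms (2L, 2R, 3L and 3R). A site was kept when its summit, the base of highest signal, lay more than 500 bp from every annotated transcription start site (TSS), inside a transcript but in no exon, and when the longest protein-coding gene across it was under 50 kb. The classes they were compared with on the same arms were 419 intronic sites in genes of 50 kb or more, 1644 promoter sites within 500 bp of a TSS and 629 intergenic sites, and a further 110 exonic sites and 20 intronic sites with no protein-coding gene across them are not described. Chromatin of whole embryos collected over 0 to 24 h came from a transgenic line with the CG32772-eGFP fusion, was precipitated with an antibody against GFP, and the recovered DNA was sequenced (ChIP-seq). There was 1 group with 2 biological replicates, so no condition was compared, and the embryos mixed all cell types and stages of that day. What drives expression of the fusion is not given in the labels. Sites are not replicates of a condition, and the p-values below compare classes of sites or bases within these libraries.

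Introns of fly genes hold many enhancers, short stretches of DNA to which transcription factors bind, and the first intron, which follows the first exon, is often the longest and lies nearest the promoter. A ChIP-seq summit marks where a bound protein, or a partner crosslinked to it, sat on the DNA. CG32772 encodes a predicted zinc finger protein, a common class of DNA-binding proteins. Fragments of 200 to 800 bp were made by sonication, per the labels, so a summit places binding only roughly within its window.

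The DNA under most of the strongest sites was rich in A and T and changed in composition over a short distance. The windows that hold the summit and 50 bp on either side, for the 8 strongest sites on 2L, 3L and 3R that both libraries' own lists hold, are shown to make that visible, each with the window of the same length 500 bp to the right, the flank. The sequence is RefSeq's copy of the dm6 assembly, read 5′ to 3′ on the plus strand, and capitals mark the sequences of 7 bases that were more frequent at summits than in flanks, searched on both strands (AAAAAAA, with AAAAAAT, further ATATTAA, plus TATTAAA, each with its reverse complement).
CG11050 summit (chr2L:6612669-6612769, plus strand): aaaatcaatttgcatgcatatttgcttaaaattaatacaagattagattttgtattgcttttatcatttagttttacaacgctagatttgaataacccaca
CG11050 flank (chr2L:6613169-6613269, plus strand): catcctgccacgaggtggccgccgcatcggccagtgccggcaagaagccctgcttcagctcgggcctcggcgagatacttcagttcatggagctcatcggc
Trl summit (chr3L:14759471-14759571, plus strand): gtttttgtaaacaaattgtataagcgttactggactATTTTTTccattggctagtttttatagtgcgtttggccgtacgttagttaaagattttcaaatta
Trl flank (chr3L:14759971-14760071, plus strand): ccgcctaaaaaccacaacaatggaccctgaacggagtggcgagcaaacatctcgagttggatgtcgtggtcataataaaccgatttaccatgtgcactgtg
CG32486 summit (chr3L:3060738-3060838, plus strand): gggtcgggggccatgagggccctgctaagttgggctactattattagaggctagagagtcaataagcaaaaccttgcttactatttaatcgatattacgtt
CG32486 flank (chr3L:3061238-3061338, plus strand): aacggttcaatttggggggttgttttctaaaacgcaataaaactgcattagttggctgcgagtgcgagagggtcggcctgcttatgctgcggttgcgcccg
CG9663 summit (chr2L:3302149-3302249, plus strand): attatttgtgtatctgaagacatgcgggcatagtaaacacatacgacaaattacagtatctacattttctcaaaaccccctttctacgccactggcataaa
CG9663 flank (chr2L:3302649-3302749, plus strand): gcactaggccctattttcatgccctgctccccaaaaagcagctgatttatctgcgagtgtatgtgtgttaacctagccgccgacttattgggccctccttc
chif summit (chr2L:16351174-16351274, plus strand): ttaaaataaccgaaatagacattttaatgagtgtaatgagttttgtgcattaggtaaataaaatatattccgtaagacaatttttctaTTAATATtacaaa
chif flank (chr2L:16351674-16351774, plus strand): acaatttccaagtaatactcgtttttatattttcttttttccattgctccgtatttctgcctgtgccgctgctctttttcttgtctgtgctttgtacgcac
Gug summit (chr3L:8458297-8458397, plus strand): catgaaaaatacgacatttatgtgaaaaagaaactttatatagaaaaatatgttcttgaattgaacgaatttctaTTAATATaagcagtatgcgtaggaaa
Gug flank (chr3L:8458797-8458897, plus strand): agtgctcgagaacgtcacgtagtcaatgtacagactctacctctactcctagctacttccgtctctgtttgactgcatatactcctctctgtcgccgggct
brat summit (chr2L:19165104-19165204, plus strand): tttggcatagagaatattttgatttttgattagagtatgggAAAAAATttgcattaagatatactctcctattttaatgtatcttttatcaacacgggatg
brat flank (chr2L:19165604-19165704, plus strand): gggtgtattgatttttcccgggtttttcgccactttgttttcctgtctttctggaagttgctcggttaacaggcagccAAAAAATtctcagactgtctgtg
CG9837 summit (chr3R:8811622-8811722, plus strand): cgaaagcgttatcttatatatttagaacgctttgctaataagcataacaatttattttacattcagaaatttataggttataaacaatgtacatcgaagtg
CG9837 flank (chr3R:8812122-8812222, plus strand): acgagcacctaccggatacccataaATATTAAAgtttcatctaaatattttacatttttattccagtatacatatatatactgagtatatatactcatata
The CG11050 summit window had a GC content of 24.8%, against 65.3% in its flank. The intron that holds this summit is 140 bp long, so that flank lies beyond the intron. The Trl window had 30.7%, against 48.5%, the Gug window 24.8%, against 50.5%, the brat window 27.7%, against 44.6%, and the chif window 21.8%, against 38.6%. CG9663 with 37.6%, against 51.5%, and CG32486 with 44.6%, against 52.5%, had the summit windows least rich in A and T. The CG9837 window had 26.7%, against 25.7% in its flank, so GC content was lower at the summit than in the flank at 7 of these 8 sites. The capitals were present at 4 of the 8 summits, those of Trl, chif, Gug and brat, and in 2 of the 8 flanks, those of brat and CG9837. The sites on 2L, among them chif and brat, were part of the set on which these sequences were chosen.

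The sites were denser than in the introns of longer genes. Per Mb of eligible intron, which is sequence that meets the same positional rule, there were 40.3 sites in genes under 50 kb (880 sites in 21.8 Mb) and 21.3 in genes of 50 kb or more (419 sites in 19.7 Mb). The ratio was 1.89 (exact binomial test, two-sided, p = 1.4e-28). Density was highest in genes of 10 to 20 kb, with 52.0 sites per Mb (95% exact Poisson interval 46.1 to 58.4). It was 33.2 per Mb in genes under 5 kb (24.6 to 43.8) and 33.5 in genes of 30 to 50 kb (29.6 to 37.7), beside 30.8 in genes of 50 to 100 kb (27.3 to 34.5) and 12.7 in still longer genes (10.6 to 15.1). The intervals of the length groups next to the 50 kb limit overlapped, and the lowest density was that of genes over 100 kb. With the gene limit at 100 kb in place of 50 kb the ratio was 2.95. Intervals cover counting error only.

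Distance from a TSS moved with this difference. Between 500 and 1000 bp from a TSS there were 70.3 sites per Mb in shorter genes (60.9 to 80.9) and 58.8 in longer genes (41.6 to 80.7). Beyond 10 kb the densities were 18.3 (13.9 to 23.6) and 11.7 (9.71 to 13.9). Of eligible intron, 7 of 21.8 Mb in shorter genes and 1.92 of 19.7 Mb in longer genes lay less than 2000 bp from a TSS, and the median site was 2108 bp from a TSS in shorter genes, against 5174 bp in longer genes. Between 500 and 2000 bp from a TSS the ratio of densities was 1.25 (61.1 and 48.8 per Mb, exact binomial p = 0.0489). Beyond 2000 bp it was 1.67 (30.5 and 18.3 per Mb, exact binomial p = 1.6e-12). Without the 6 Mb of each arm nearest the centromere it was 1.34 (42.5 and 31.6 per Mb, exact binomial p = 1.2e-06), so the ratio stayed above 1 in each of these 3 comparisons and was smaller than over all eligible intron.

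**Figure D1:**
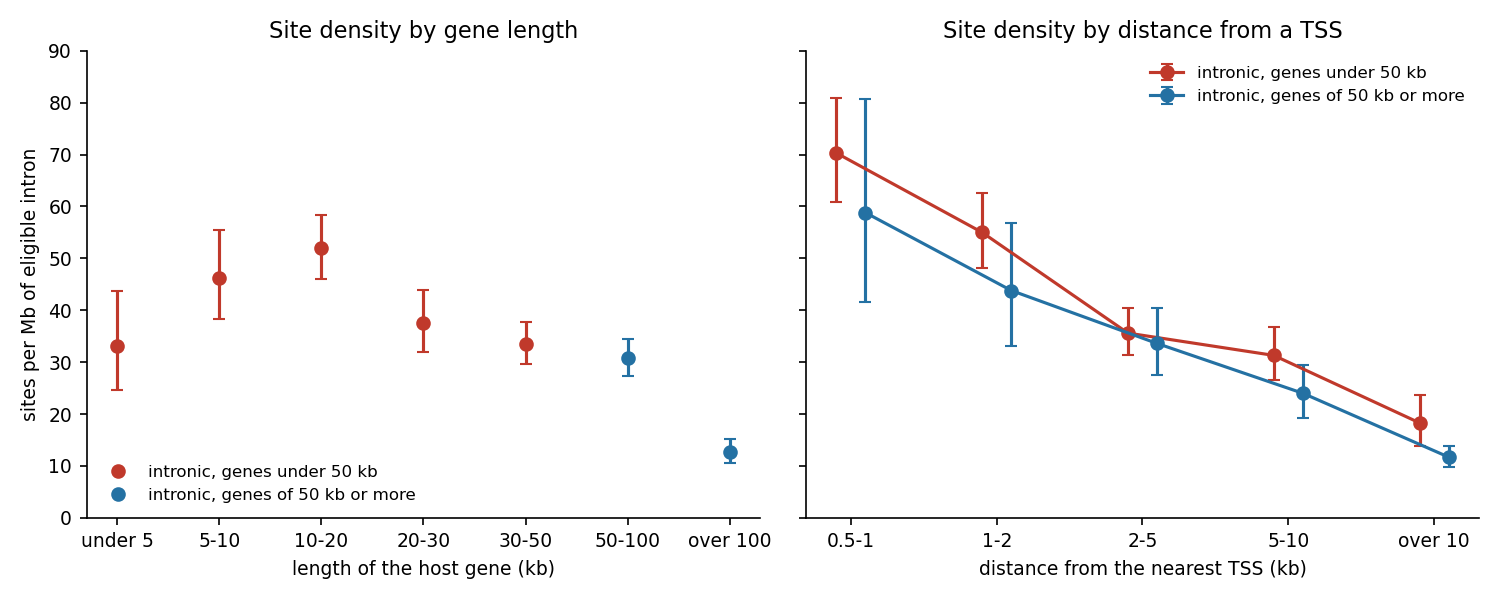
Intronic sites per Mb of eligible intron, by length of the host gene in kb (left) and by distance from the nearest TSS in kb (right). Points are densities, bars are 95% exact Poisson intervals, red is genes under 50 kb and blue is genes of 50 kb or more. Density was 52.0 per Mb in genes of 10 to 20 kb and 12.7 in genes over 100 kb, and in genes under 50 kb it was 70.3 between 500 and 1000 bp from a TSS and 18.3 beyond 10 kb.

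Most sites lay in a first intron of some annotated transcript. There were 663 such sites of 880, or 75.3% (95% exact interval 72.4 to 78.2), whereas 51.4% of eligible intronic bases in genes under 50 kb belong to a first intron, a ratio of 1.46 (exact binomial test, two-sided, p = 8.1e-48). The excess was present near and far from start sites, with 87.9% of sites against 66.3% of bases between 500 and 2000 bp from a TSS (exact binomial p = 1.3e-24) and 63.5% of sites against 44.4% of bases beyond that (exact binomial p = 5.6e-16). In genes of 5 to 10 kb 91.5% of sites were in a first intron, where 58.0% of bases are. In genes of 30 to 50 kb the shares were 67.0% of sites and 45.9% of bases. The excess was not particular to shorter genes. In genes of 50 kb or more, 217 of 419 intronic sites (51.8%) were in a first intron. At 50 to 100 kb the shares were 50% of sites and 40.6% of bases, and over 100 kb 55.7% and 24%, without a test. The introns that held the 880 sites in shorter genes had a median length of 7528 bp and ranged between 140 and 44598 bp. In 468 of 880 cases (53.2%) the intron was the longest of its gene. The nearest TSS belonged to the host gene at 641 sites (72.8%) and to another gene at 239. The distance to the nearest exon was a median of 1416 bp, and 19 sites were within 100 bp of an exon.

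The 4 arms carried sites nearly in proportion to their eligible intron. There were 174 sites on 2L, 191 on 2R, 242 on 3L and 273 on 3R. Their densities were 35.5 per Mb on 2L, 38.5 on 2R, 47.5 on 3L and 39.8 on 3R. Only 3L passed the test, with 1.18 times the count its share of bases gives (exact binomial test, adjusted p = 0.0186). That call was lost, with ratios of 1.07 to 1.15, in the list of either library alone, with summits within 1 kb counted once, with a gene limit of 30 kb, with a TSS distance of 200 bp and in the upper 50% of the list by signal.

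The sites nearest each positional limit, inside and outside, are listed without a test. The longest host genes inside the limit were kmr (49461 bp, signal 106), cdi (49389 bp, signal 110) and InR, the insulin receptor gene (49074 bp, signal 279). The first gene outside was ab, with 50403 bp and 3 sites of signal 112, 109 and 84.8. Nearest the TSS limit on the inside were sites in stet at 502 bp (signal 103), jar at 503 bp (signal 304) and loco at 504 bp (signal 66.7). On the outside were sites at htl at 499 bp (signal 81.4), Oda at 496 bp (signal 164) and CG31612 at 495 bp (signal 541).

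Each library's own thresholded list held over 50% of these sites, and its full ranked list nearly all of them, as it did over the whole joint list. The lists hold no read counts, and library depth is therefore unknown. The signal is the authors' value per peak, whose scale is not stated, and it served to order the sites of a list and to compare the libraries. The full ranked lists are long, with 113626 calls on the arms in replicate 1 and 77048 in replicate 2, and the joint list was called from these libraries, so overlap with them is no independent check. A call overlapped 870 of the 880 sites in replicate 1 (98.9%, beside 99.3% of all 4699 peaks) and 876 in replicate 2 (99.5%, beside 99.6%). At 43 sites (4.89%) a library call used here was also the one used for a stronger neighbouring peak, and 16 of these count below as present in both own lists. The library signal at these calls ran between 29.7 and 1186 in replicate 1, with a median of 52.8, and between 30.1 and 1062 in replicate 2, with a median of 59.3. Over the 866 sites called in both, the Spearman rho between the libraries was 0.719 and the Pearson r on the log10 scale was 0.848. These correlations describe sites within the same pair of libraries, which are not independent samples. The joint signal was close to the sum of the library signals, with a median ratio of 0.996 over 833 sites (10th to 90th percentile 0.919 to 1.06).

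In the libraries' own thresholded lists, 397 sites were present in both (45.1%, against 50.9% of all 4699 peaks), 88 in replicate 1 only, 155 in replicate 2 only and 240 in neither. Replicate 1 held 55.1% of the 880 sites, beside 60.9% of all peaks, and replicate 2 held 62.7%, beside 66% of all peaks. The own list of replicate 2 is the longer one, with 3537 calls on the arms, against 3012 in replicate 1. The share of sites found in a single list that came from replicate 1 was 36.2%, against 40.9% at the other peaks (383 in replicate 1 only and 553 in replicate 2 only), a difference that did not pass (Fisher's exact test, p = 0.187). Sites in both lists had a median joint signal of 184, those in replicate 1 only 97.4, those in replicate 2 only 102 and those in neither 76.3. A further property of the list was that 35 sites had a joint signal under 20. All of these were at most 267 bp away from another summit of the joint list, and each counts here as a site of its own. With summits within 1 kb counted once, 782 sites remained.

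**Figure D2:**
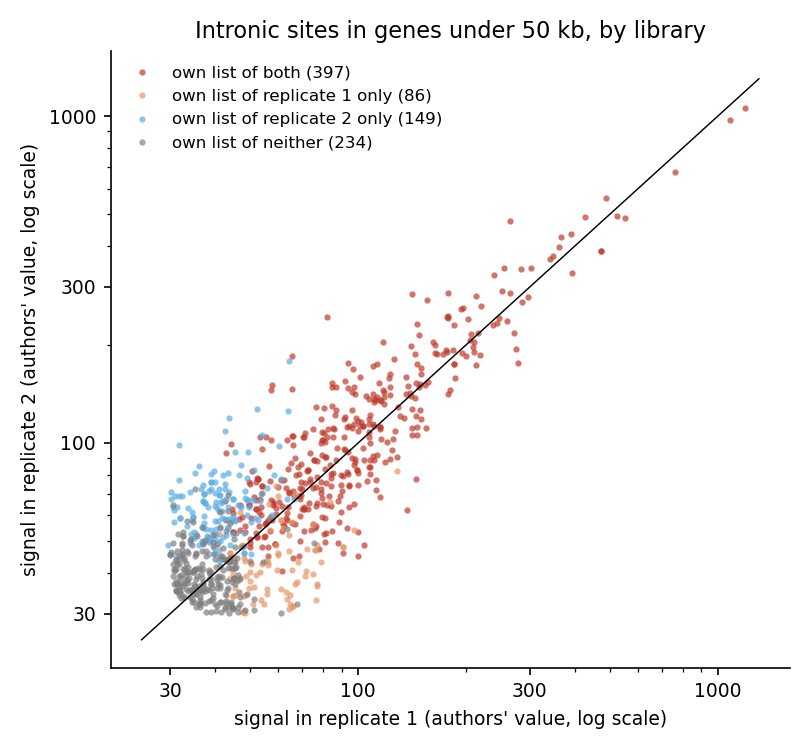
Signal of each intronic site in genes under 50 kb in replicate 1 (horizontal axis) and in replicate 2 (vertical axis), authors' values on log scales, for the 866 sites called in both ranked lists. Colours give the libraries' own thresholded lists that hold the site and the line marks equal values; sites in both lists spread up to 1186 in replicate 1 and 1062 in replicate 2, and those in neither stay at the low end.

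These intronic sites were weaker than promoter sites. In the main list no tested difference in signal or in own-list share from the other distal classes passed. In the upper 50% of the whole list by joint signal, where 50% of all peaks lie by construction, were 400 of 880 intronic sites in genes under 50 kb (45.5%, exact interval 42.1 to 48.8). The share was 58.3% at promoters (55.8 to 60.7), a difference of -12.8 percentage points (Fisher's exact test, adjusted p = 2.7e-09). It was 41.3% in introns of longer genes (36.5 to 46.2, adjusted p = 0.254 by Fisher's exact test) and 44.2% at intergenic sites (40.3 to 48.2, adjusted p = 0.637 by Fisher's exact test). The difference from introns of longer genes was 4.17 points, and it passed in the list of replicate 1 alone (14.7 points, Fisher's exact test, adjusted p = 0.000253) and with the gene limit at 30 kb or 100 kb, whereas in the list of replicate 2 alone it was -2.59 points. The share present in both libraries' own lists was 45.1% here, 58.3% at promoters (Fisher's exact test, adjusted p = 7.2e-10), 42.0% in introns of longer genes (adjusted p = 0.465 by Fisher's exact test) and 44.7% at intergenic sites (adjusted p = 0.875 by Fisher's exact test). Median joint signals were 108 in introns of genes under 50 kb, 104 in introns of longer genes, 132 at promoters and 106 at intergenic sites. Among the 100 strongest peaks of the whole list, 11 were intronic sites in genes under 50 kb, which make up 18.7% of the list. A further 1 was in an intron of a longer gene (8.92% of the list), 63 were promoters (35%) and 6 were intergenic (13.4%). The others were 1 exonic site and 18 on chromosomes 4, X or Y. Of the 500 strongest peaks, 72 were intronic in genes under 50 kb and 15 in longer genes. These counts were not tested.

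**Figure D3:**
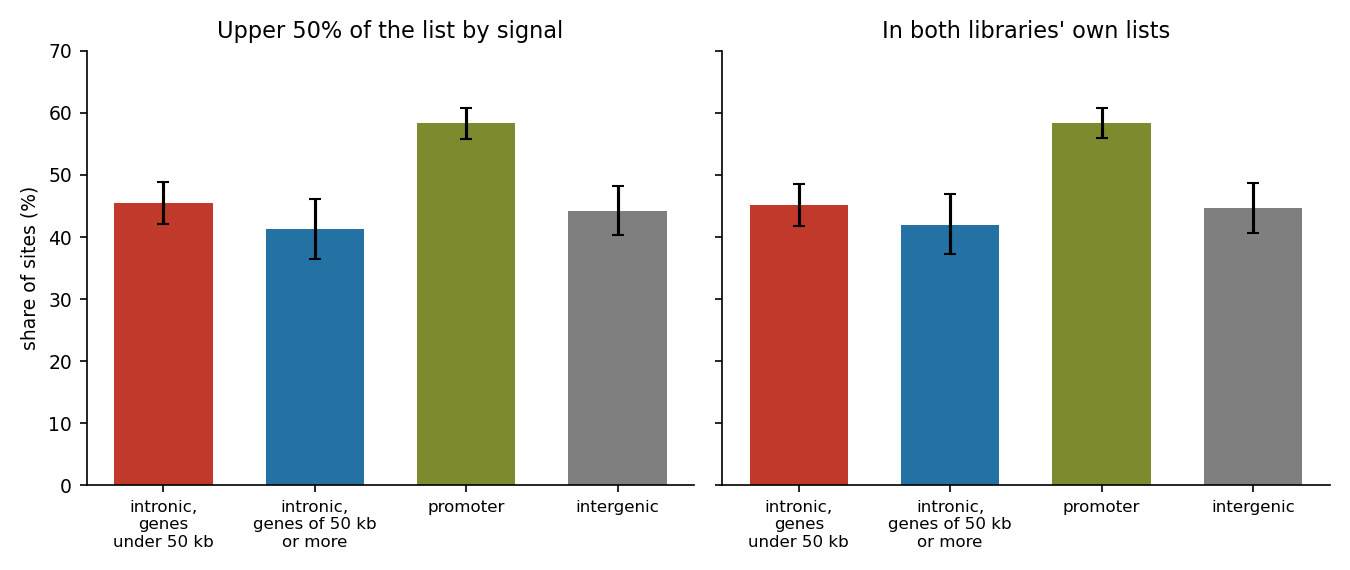
Share of sites (%) in the upper 50% of the list by signal (left) and in both libraries' own lists (right), for intronic sites in genes under 50 kb, intronic sites in genes of 50 kb or more, promoter sites and intergenic sites. Bars are shares and lines are 95% exact intervals; the share in both lists was 45.1% in introns of genes under 50 kb and 58.3% at promoters.

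Strength went with position and with base composition inside the class. Of the 72 sites among the 500 strongest peaks, 86.1% were in a first intron, their median distance to a TSS was 1302 bp and their median summit GC content 27.7%. Of the 339 sites ranked below 3000, 72.3% were in a first intron, the median distance was 2390 bp and the median GC content 37.6%. Both own lists held 98.6% of the 72 strong sites and 6.49% of the 339 weak ones. The joint signal, which sets the rank, was close to the sum of the library signals, so this difference is no independent check.

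The hosts of the strongest sites were genes of many kinds, and no kind was tested. The top site, in the second intron of CG11050 (2L, positions 6612544 to 6612892), had a signal of 1186 in replicate 1 and 1062 in replicate 2 and ranked 5 in the joint list. The intron is 140 bp long and the summit is 61 bp from an exon, which makes it the shortest intron of the whole class. Adf1, which encodes a transcription factor first found at the Adh promoter, had signals of 1080 and 974 at a first-intron site 786 bp from its TSS. HmgD, which encodes a DNA-bending chromatin protein with an HMG box, had signals of 758 and 672. Its site was 565 bp from the nearest TSS, which is that of the gene HmgZ. Trl, which encodes GAGA factor, a protein that binds repeats of GA and opens chromatin, had signals of 552 and 489 at 3L positions 14759347 to 14759669, 1528 bp from a TSS. The libraries gave these 4 sites ranks of 6, 9, 18 and 37 in replicate 1 and of 8, 11, 26 and 65 in replicate 2.

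Further down, Hr3, the gene of a nuclear receptor in the ecdysone cascade, had signals of 427 in replicate 1 and 492 in replicate 2. chif, the fly gene for the Dbf4-like activator of a replication kinase, had 390 and 437, and Gug, which encodes the corepressor Atrophin, had 366 and 426. brat, whose product represses translation and limits growth of neural stem cells, had 362 and 397. Each of these 4 genes carried its strongest site in a first intron of some annotated transcript. By the shortest host intron that holds the site, it was in the second intron of Hr3 and of Gug. Pak3, a kinase that acts on the cytoskeleton, differed most between the libraries among the leading genes, with 264 in replicate 1 and 477 in replicate 2. MYPT-75D, a targeting subunit of myosin phosphatase, had 342 and 366.

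Among the rest of the 25 strongest sites that both own lists hold were for, a cGMP-dependent protein kinase (283 in replicate 1 and 341 in replicate 2), ImpL2, a secreted protein that binds insulin-like peptides (254 and 342), and Btk, a tyrosine kinase of the Tec family (297 and 279). edl, an antagonist of the repressor Yan, had 239 and 327, and KCNQ, a potassium channel gene, had 274 and 194. The remaining hosts were CG12769, CG32486, CG9663, CG9837, CG4496, Reph, CG31635, CG42327 and CG4622, with signals of 251 to 524 in replicate 1 and of 269 to 560 in replicate 2. CG9663 held 2 neighbouring summits over the same library calls, so the 25 sites lay in 24 genes. Among the 25, the nearest TSS belonged to another gene at the sites in HmgD, CG32486, Hr3, ImpL2, Btk, KCNQ and CG4622. All 25 were within the first 235 calls of replicate 1 and the first 388 of replicate 2. Of the 25, 22 were in a first intron of some annotated transcript, and the promoters of 12 hosts also carried a peak. Their median summit GC content was 26.7%. The strongest site of the class that an own list lacked ranked 408.

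**Figure D4:**
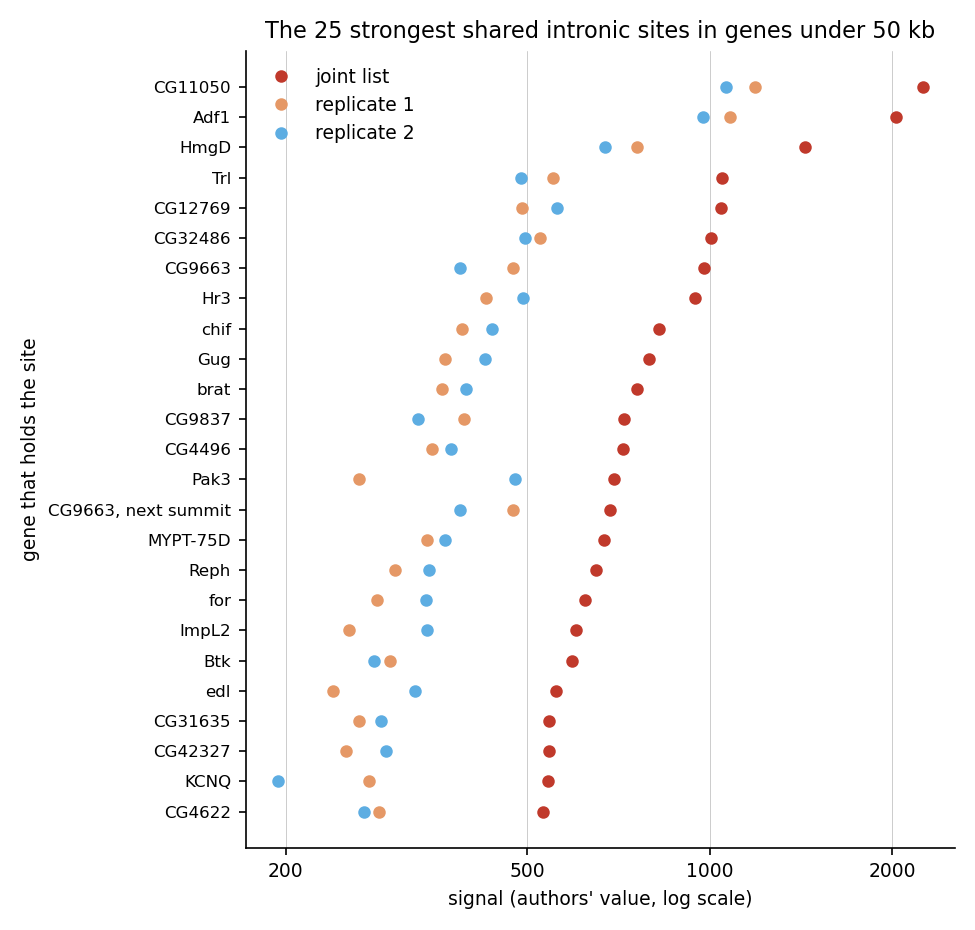
Signal of the 25 strongest intronic sites in genes under 50 kb that both libraries' own lists hold, named by host gene, authors' values on a log axis. Red is the joint list, orange replicate 1 and blue replicate 2; the joint signal runs between 530 and 2243, and Pak3 and KCNQ have the libraries furthest apart on this scale.

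Sites gathered in some genes. The 880 sites fell in 557 host genes of 6685 that had eligible intron, or 8.33% (exact interval 7.68 to 9.02). There were 371 hosts with 1 site, 104 with 2 and 82 with 3 or more, and 509 sites (57.8%) were in a host with more than 1. Hosts had more room, with a median of 9637 bp of eligible intron against 344 bp in genes without a site. Of genes with more than 1000 and up to 3000 bp of eligible intron 9.21% were hosts, and of genes with more than 10 and up to 50 kb 38.8%.

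The gene with the most sites was tou, with 8, whose product Toutatis is a chromatin remodelling subunit. Its strongest site had signals of 123 in replicate 1 and 162 in replicate 2, and 3 of its sites were in both own lists. simj, which encodes a subunit of the Mi-2 nucleosome remodelling complex, had 6 sites in its first intron, 5 of them in both own lists, and the strongest had 260 and 236. apt, a transcription factor gene, had 6 sites, with 186 and 158 at the strongest, and msn, a Ste20-type kinase gene, had 6, with 115 and 135. tna, NK7.1, a homeobox gene, and eIF5B, a translation initiation factor gene, also had 6 each. CG9328, gpp, which encodes the histone H3 methyltransferase Dot1, and fra, which encodes the Netrin receptor Frazzled, had 5 each. side-V and Mrtf also had 5, with a lower summed signal, which set the order among equal counts. Of the first 10 genes, tou, apt, tna, NK7.1 and eIF5B also carried a peak at a promoter. Some of these counts include a weak summit close to another one, such as the site of signal 9.56 in tou and that of 10.4 in simj.

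Host genes were counted in lists of pathway, tissue and chromatin genes, as a description beside the 8.33% of all eligible genes and without a test. The share of hosts moved with the room for sites, being 22.4% of genes with more than 3 and up to 10 kb of eligible intron and 38.8% of those with more than 10 and up to 50 kb. For each host the values are the library signals at its strongest site. Of 33 gene lists, 31 had a larger share of hosts than 8.33%, but 30 also had more eligible intron per gene than the median of 408 bp over all genes, and 23 had more sites per Mb than the 40.3 over all eligible intron. In the EGFR and Ras pathway, which carries growth factor signals inward, 7 of 14 eligible genes were hosts, with 18 sites (139 per Mb). Star (S), which moves the ligand precursors through the secretory pathway, had 4 sites, the strongest with 196 in replicate 1 and 258 in replicate 2. aop, the repressor Yan, had 178 and 245, drk, the adaptor between receptor and Ras activation, had 166 and 187, and sty, the inhibitor Sprouty, had 108 and 80.6. The receptor gene Egfr itself had 4 sites, the strongest with 68.7 and 80.3.

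In the Dpp and activin pathway, the fly branch of TGF-beta signalling, 6 of 13 eligible genes were hosts, with 95.4 sites per Mb. The transcription factor gene Mad had signals of 178 in replicate 1 and 287 in replicate 2, the receptor gene wit 213 and 173, the ligand gene dpp 107 and 136, and the inhibitory Smad gene Dad 84.8 and 153. In the Hedgehog pathway 4 of 8 were hosts, with 126 sites per Mb. dlp, a glypican, had 116 and 134, ptc, the receptor, had 39.8 and 81.9 with that site in the list of replicate 2 alone, Pka-C1, a kinase that holds the pathway down, had 80.2 and 52.7, and the ligand gene hh had 32.2 and 39.4 and was in neither list. In the Hippo pathway, which restrains growth, 4 of 11 were hosts, with 163 sites per Mb. The upstream genes ex (92.2 and 120), kibra (115 and 68.5) and crb (94.1 and 74.2) and the kinase gene wts (90.1 and 71.3) each had a site in both own lists.

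In the JAK-STAT pathway 3 of 5 eligible genes were hosts, with 243 sites per Mb. They were the repressor gene ken (100.6 in replicate 1 and 158.7 in replicate 2), the transcription factor gene Stat92E (107 and 118) and the feedback inhibitor gene Socs36E (59.1 and 73.6). Of the FGF, PVR and insulin receptor list 7 of 17 were hosts, with 46.9 sites per Mb. InR, the insulin receptor gene, had 122 and 158, and jeb, which encodes the ligand of the Alk receptor, had 94.0 and 147. In the Wnt pathway 4 of 13 were hosts, with 61.9 sites per Mb, led by the feedback inhibitor gene nkd (98.1 and 141) and the coreceptor gene arr (82.9 and 68.6). Wnt4, a ligand gene, had 31.8 and 68.9 and Notum, whose product inactivates Wnt, had 51.3 and 36.3, each at a site in a single own list. In the Notch pathway 2 of 11 were hosts, with 35.2 sites per Mb, and these were neur, a ubiquitin ligase gene (126 and 181), and fng, a glycosyltransferase gene (42.6 and 34.4).

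Among chromatin regulators, 6 of 18 eligible genes of the trithorax group and remodellers were hosts, with 17 sites (144 per Mb). After Trl came Mi-2, a remodelling ATPase gene, with 178 in replicate 1 and 141 in replicate 2, tna with 139 and 142, and trx, a histone H3 methyltransferase gene, with 94.1 and 113. In the Polycomb group 3 of 17 were hosts, with 69.8 sites per Mb. Psc had 138 and 149, Su(z)2, its neighbour and relative, had a call only in replicate 2, of 101.1, and crol had 55.1 and 56.5. Among insulator and promoter-binding proteins 2 of 12 were hosts, Adf1 and Trl, whose 5 sites gave 344 per Mb over only 14.6 kb of eligible intron. Of the zinc finger and BTB transcription regulators 8 of 18 were hosts, with 74.0 sites per Mb. zfh1, which acts in mesoderm and blood cells, had 244 and 233, sr, a tendon cell factor, had 210 and 204, ken was named above, and bab2 had 53.9 and 74.0.

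The lists of patterning, ecdysone, mesoderm and muscle genes had between 16.8 and 44.0 sites per Mb, beside 40.3 over all eligible intron. Of 15 eligible pair-rule and segment polarity genes 6 were hosts (43.0 sites per Mb), but only nkd and lbl had a site in both own lists, and inv (39.4 in replicate 1 and 49.8 in replicate 2) was in neither. Of 11 maternal coordinate and gap genes 1 was a host, tsl (104 and 48.9, with 26.6 sites per Mb over the list), and of 8 homeotic genes and cofactors 1, Abd-B (69.8 and 72.3, with 16.8 per Mb). Of 17 genes of the ecdysone response and nuclear receptors 4 were hosts (44.0 per Mb), with E23, a transporter gene, at 146 and 231 after Hr3, crol as above and Hr38 at 46.3 and 31.4. Of 21 genes of mesoderm, heart and muscle specification 6 were hosts (41.4 per Mb), with how, an RNA-binding protein gene, at 79.1 and 118 after zfh1, and nau, a myogenic factor gene, at 65.8 and 98.7. Of 12 muscle structural genes 2 were hosts (36.1 per Mb), tn (89.9 and 61.3) and Tm1 (34.8 and 34.4).

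In the nervous system lists, 2 of 5 proneural and neuroblast genes were hosts, brat and insc (93.1 in replicate 1 and 81.5 in replicate 2), and 2 of 14 temporal and neuronal identity factors, zfh1 and grh (93.7 and 176). Of 13 glial genes 3 were hosts, with loco at 42.9 and 93.2 and nrv2 at 45.4 and 93.9 after nkd. Of 14 genes of neuronal function and axon guidance 4 were hosts, with fra at 110 and 172, and robo2, VGlut and Sema2a between 29.7 and 43.6 in replicate 1. Of 11 neural RNA-binding protein genes 3 were hosts, with ps at 145 and 121, how, and Rbp9 at 35.1 and 45.1. The germ line and piRNA list had no host among 16 eligible genes with 20.4 kb of eligible intron, which allows a share of up to 18.8%, and hemocyte, fat body and immune genes had 1 of 20, Dif, an NF-kappa-B factor gene (200 and 184). Per Mb there were 47.1 sites in the proneural and neuroblast list, 73.8 in the glial list and 79.4 in the neural RNA-binding list. There were 17.4 in the temporal and neuronal identity list, 34.3 in the neuronal function list and 7.8 in the hemocyte list. Over all eligible intron the value was 40.3.

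In the epithelial lists, 4 of 14 tracheal genes were hosts, with rib, a BTB factor gene, at 113 in replicate 1 and 174 in replicate 2 after sr, then crb, and bnl, the FGF ligand gene, at 36.3 and 41.2. Of 20 epidermis, cuticle and barrier genes 2 were hosts, grh and crb. Of 12 genes of endoderm, gut and Malpighian tubule 2 were hosts, bowl (78.9 and 100) and grn (55.8 and 35.7). The tracheal list had 32.4 sites per Mb, the epidermis list 29.1 and the endoderm list 48.3, beside 40.3 over all eligible intron. In the housekeeping lists, 7 of 21 metabolism and heat shock genes were hosts (132 sites per Mb), among them Hsp83, a chaperone gene (218 and 186), bmm, a lipase gene (156 and 154), SREBP (41.9 and 66.3) and foxo (47 and 61.7). Of 21 cytoskeleton and adhesion genes 6 were hosts, with tsr, which encodes cofilin, at 144 and 187, mbc at 123 and 140, rhea, which encodes talin, at 99.1 and 82.4, and hts with a call only in replicate 2, of 151. Of 19 apoptosis and growth control genes 3 were hosts, with Diap1, an inhibitor of cell death, at 140 and 139, puc at 90.9 and 46.1 and kay at 77.8 and 47.5. Of 26 cell cycle and replication genes 3 were hosts, E2f1 (40.3 and 66.0), grp (35.0 and 37.1) and CycE. The CycE site had a joint signal of only 50.8, and the library calls over it, of 77.0 in replicate 1 and 78.6 in replicate 2, also overlap a stronger peak whose summit is 200 bp away. Of 10 circadian clock genes 3 were hosts, dco (91.3 and 118), cwo (112 and 72.0) and vri (47.1 and 64.4). Sites per Mb were 56 in the cytoskeleton list, 56.1 in the apoptosis list, 77.1 in the cell cycle list and 88.9 in the circadian list.

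Many host genes also carried a peak at a promoter. The host had a joint peak within 500 bp of one of its own start sites at 321 of 880 sites (36.5%), against 148 of 419 intronic sites in longer genes (35.3%), which did not pass (Fisher's exact test, p = 0.711). The difference was -9.19 points in the list of replicate 2 alone (Fisher's exact test, p = 0.00702) and -5.92 points with the gene limit at 30 kb (Fisher's exact test, p = 0.0279), so its direction was not settled. Counted by gene, 189 of 557 hosts (33.9%, exact interval 30 to 38) and 1221 of 6128 other eligible genes (19.9%, 18.9 to 20.9) had a promoter peak. Among genes with more than 10 kb of eligible intron the shares were 32.5% of hosts and 16.6% of others, and among those with more than 1000 and up to 3000 bp 30.8% and 21.6%.

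GC content dipped sharply at the summits. The median over the 880 sites was 32.7% at the summit, against 42.1% for the mean of the windows 500 bp on both sides. Set against that mean, the summit was lower at 659 sites, higher at 212 and equal at 9, with a median difference of -8.91 percentage points (exact sign test, two-sided, p = 5e-54). Leaving out windows with a tract of 8 A or T gave -9.41 points over 735 sites (exact sign test, p = 1.6e-44). The rule kept summits out of exons, while the flank windows, here and in the motif comparisons below, could hold exon sequence. How much this adds to the difference was not tested. Mean GC content was 33.5% in the 20 bp left of the summit, had its highest value of 45.2% about 210 bp to the right and was 41.0% near 1 kb on the right. Introns of longer genes and intergenic sites had the same shape, with minima of 34.7% and 35.0%, while promoters, with a minimum of 34.0%, had their highest value of 46.3% about 630 bp away and still 45.2% near 1 kb on the left. The dip was not uniform, since 79 summit windows (8.98%) were over 50% GC, among them that of the strong site in CG4622 with 55.4%.

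**Figure D5:**
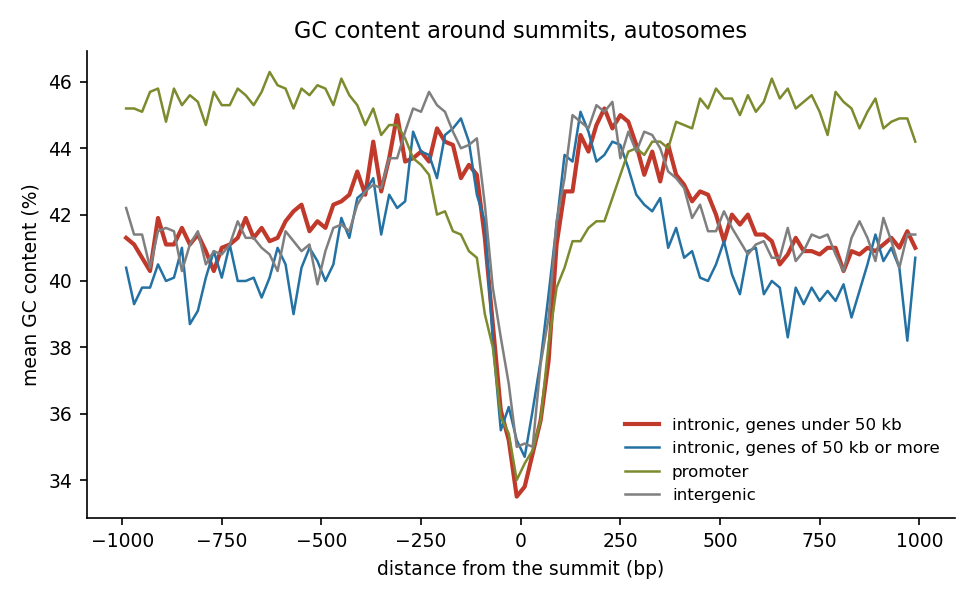
Mean GC content (%) in steps of 20 bp around summits, by distance in bp, for intronic sites in genes under 50 kb (red), intronic sites in genes of 50 kb or more (blue), promoter sites (green) and intergenic sites (grey) on the autosomes. All 4 classes dip to between 33.5% and 35.0% at the summit.

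Of 32 motifs of known fly factors and simple repeats, 5 (15.6%) differed between summit and flank windows. Motifs were searched on both strands. A tract of 8 A (AAAAAAAA, or 8 T) was at 16.5% of summits and 6.36% of flanks (exact McNemar test, adjusted p = 5.8e-10), and the homeodomain core TAATTA at 9.55% and 6.02% (exact McNemar test, adjusted p = 0.0451). The homeodomain call was lost in 10 of 13 alternatives, and its letters in reverse, ATTAAT, were at 9.09% of summits and 4.55% of flanks. Lower at summits were the CA repeat CACACACA (1.25% and 4.66%, exact McNemar test, adjusted p = 0.000382), GGAATG, the core bound by Scalloped (2.84% and 6.25%, exact McNemar test, adjusted p = 0.00571) and GAGAGAG, the repeat bound by GAGA factor (0.909% and 2.95%, exact McNemar test, adjusted p = 0.0168). These 3 calls depended on the flank or the list. With the flank at 1000 bp the CA repeat differed by -0.227 points (exact McNemar test, adjusted p = 0.994), GGAATG by -1.25 points (exact McNemar test, adjusted p = 0.688) and GAGAGAG by -1.59 points (exact McNemar test, adjusted p = 0.129). With the flank to the left GGAATG differed by -1.14 points (exact McNemar test, adjusted p = 0.615), and in the list of replicate 1 alone the CA repeat by -2.33 points (exact McNemar test, adjusted p = 0.232). Of 13 alternatives the CA repeat was lost in 2, GGAATG in 3, GAGAGAG in 5 and the A tract in 0. Over all 4699 summits the shares were 16.0% for the A tract, 8.94% for TAATTA, 1.51% for CACACACA, 3.49% for GGAATG and 1.53% for GAGAGAG. Uninterrupted runs of at least 15 A or T were at 205 summits (23.3%) and 62 flanks (7.05%). A match to these letters is a description of the sequence and not a binding site.

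Against the other classes, 3 of 96 comparisons (3.12%) passed, all of them against promoters. The core CGATA of the insulator protein BEAF-32 was in 10.6% of summit windows here and 17.9% at promoters (Fisher's exact test, adjusted p = 7.3e-05). The promoter element DRE, TATCGATA, was in 0.341% here and 2.68% at promoters (Fisher's exact test, adjusted p = 0.00023). GGTCACAC, known as Motif 1 of core promoters, was in 0 of 880 windows here, which allows a share of up to 0.341%, and 1.95% at promoters (Fisher's exact test, adjusted p = 7.6e-05). DRE and Motif 1 are promoter elements, and the rule left out summits within 500 bp of a TSS. Their lower shares here are therefore no result independent of the rule. In the list of replicate 1 alone the BEAF-32 core differed by -6.11 points (Fisher's exact test, adjusted p = 0.0502) and Motif 1 by -1.3 points (Fisher's exact test, adjusted p = 0.198), and among sites in the upper 50% by signal Motif 1 differed by -1.46 points (Fisher's exact test, adjusted p = 0.344). The DRE call was kept in all 11 alternatives run. No motif passed against introns of longer genes, where 2 had an unadjusted p under 0.05 by Fisher's exact test, or against intergenic sites, where 4 did. No motif split the sites by signal (0 of 32, or 0%, by Fisher's exact test with adjustment), and 1, TAATTA, had an unadjusted p under 0.05, with 57.1% of 84 sites with it and 44.2% of 796 without it in the upper 50% by signal.

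Sequences of 7 bases were ranked on the sites of chromosome 2 and the 10 leading ones were tested on the 515 sites of chromosome 3, so that choice and test used different sites. Of these 10, 6 (60%) passed. AAAAAAT was at 18.3% of summits and 7.96% of flanks (exact McNemar test, adjusted p = 3.8e-06), AAAAAAA at 19.6% and 9.71% (exact McNemar test, adjusted p = 4.1e-05), ATATTAA at 8.35% and 2.91% (exact McNemar test, adjusted p = 0.000781) and TATTAAA at 9.71% and 4.27% (exact McNemar test, adjusted p = 0.00189). Lower at summits were ACACACA (2.52% and 6.21%, exact McNemar test, adjusted p = 0.00865) and CACACAC (2.72% and 6.02%, exact McNemar test, adjusted p = 0.0229). Over all 4699 summits the shares were 18.1% for AAAAAAT, 21.2% for AAAAAAA, 9% for ATATTAA and 10.1% for TATTAAA. They were 3.23% for ACACACA and 2.64% for CACACAC. The sequences overlap in pairs, such as ATATTAA with TATTAAA, so the 6 calls are not independent. The first 4 hold only A and T. GC content was lower at summits than in flanks, so these sequences cannot be told apart from base composition. With the flank to the left 7 of the 10 passed and with the flank at 1000 bp 5, in both cases with the first 4 among them, while at 1000 bp ACACACA (exact McNemar test, adjusted p = 0.165) and CACACAC (exact McNemar test, adjusted p = 0.471) were lost. Any of the first 4 was present at 351 of the 880 summits (39.9%) and in 174 flanks (19.8%), as marked in capitals in the sequences above. The 880 sites include those of chromosome 2 on which the sequences were chosen, so this contrast is a description and not a test.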

How the data were processed

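ChIP-seq of CG32772-eGFP from whole embryos was deposited as peak lists on dm6 for 2 biological replicates, each alone and jointly. Per the labels, another experiment was named as a possible control. No aligner or peak caller is named in the labels or file headers (not given in the sources used here). Peak signal is the authors' value, with a scale that is not stated. The score per peak is the authors' own and never falls below 830 in a thresholded list. The deposited -log10 q-values were not tested again. The stricter joint list (4746 peaks, 4699 of them on the arms) was the main list and was called on both libraries together, while each library's own lists (3048 and 3562 thresholded peaks) were called separately. An overlap of at least 1 bp counted as shared, and a site took the strongest overlapping call of each library's ranked list.

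Gene models were those of Ensembl release 115 (BDGP 6.54, without transposable elements), sequence was RefSeq's copy of the assembly, and every peak end lay within its arm. Exact binomial, sign, McNemar and Fisher's tests were two-sided, with Benjamini-Hochberg adjustment per family at 0.05, in Python 3.11.15 (scipy 1.17.1, pandas 2.3.3, numpy 2.4.6; plots with matplotlib 3.10.9). The first-intron, motif and 7-base tests were checked on simulated data. The members, gene lists (760 symbols, 718 matched), motifs and tests were chosen with earlier results of these data known. Named genes are the hosts of the 25 strongest shared sites, the 10 genes with the most sites, up to 4 hosts per list, and the sites nearest each limit. The alternatives were other lists, limits, windows and flanks, summits within 1 kb counted once, and a few chosen after seeing the data, namely the splits by TSS distance, the regions near centromeres, the windows without A tracts and other flanks for the sequences of 7 bases.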

Additional observations from a re-analysis of the deposited data

How the results depend on the processing

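Site density (ratio 1.25 to 2.95), first introns (1.33 to 1.57), GC content at summits (-8.91 to -11.9 points) and the comparisons with promoter sites by signal and by own lists kept their direction and their side of the threshold in every alternative run. Other calls moved, and the cause was not tested. In either library's list alone, the difference in signal from introns of longer genes ran between -2.59 and 14.7 points, the 3L ratio was 1.11 in both, the host promoter difference ran between -9.19 and 5.88 points, motifs that passed numbered 3 to 4 against flanks and 1 to 3 against promoters, and sequences of 7 bases 2 to 4. With the gene limit at 30 kb, the signal difference was 7.5 points, the 3L ratio 1.07, the host promoter difference -5.92 points, and 3 motifs and 3 sequences of 7 bases passed; with 100 kb the signal difference was 10 points. The 3L ratio was 1.15 with near summits counted once, 1.13 with a TSS distance of 200 bp and 1.12 in the upper 50% by signal, where 3 sequences of 7 bases passed. The 2L ratio passed at 0.85 in the other joint list and at 0.824 with a TSS distance of 1000 bp, where 3 motifs passed against flanks, 1 against longer genes and 5 against promoters. Windows with 25 bp on either side of the summit left 2 motifs against flanks, and windows with 100 bp on either side gave 1 against longer genes. A flank to the left left 3 motifs and a flank at 1000 bp left 1.

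Of 295 recomputed values, 246 kept their call, 29 no longer passed, 5 newly passed, 13 counts moved and 2 reversed. No paired analysis was possible because there was 1 group. Depth is unknown, neighbouring summits are not independent, a control precipitation was not analysed here, and fewer bound cells and weaker binding per cell cannot be told apart in whole embryos.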

Other observations

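Within the class, the letters at the summit went with the strength of the site, in a comparison chosen after its values were seen and given without a test. The 400 sites in the upper 50% of the list by signal had a median summit GC content of 29.7%, against 34.7% at the 480 weaker sites. GC content was under 30% in 50.5% of the stronger windows and in 29.4% of the weaker ones. ATATTAA was in 11.5% of the stronger and 7.29% of the weaker windows, TATTAAA in 13.0% and 8.54%, and uninterrupted runs of at least 15 A or T in 27.5% and 19.8%. AAAAAAA was in 22.0% and 21.7%.

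Sites were also close to other bound positions. Another summit of the joint list lay within 1 kb of 198 sites (22.5%), and the median distance to the next summit was 3430 bp. At 48 sites (5.45%) more than 1 protein-coding gene spanned the summit, so the named host is the longest of them.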
